A study of Mus musculus with 9 samples.

Results

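The genes described are 10 members of the BCL2 family, measured by 3′ end RNA sequencing in RAW264.7 cells, a mouse macrophage line of BALB/c origin that turns into osteoclast-like cells when given RANKL. The members were chosen by symbol (Bcl2, Bcl2l1, Mcl1, Bcl2a1b, Bcl2a1d, Bax, Bak1, Bcl2l11, Bbc3 and Pmaip1), and all 10 were found among the 23282 gene rows, on 1 row each. The negative control received RANKL alone at 50 ng/mL. The surface protein group received RANKL and 10 µg/mL of surface protein from Propionibacterium freudenreichii MJ2. The third group received heat-killed MJ2 at 10000000 cells/mL, and whether RANKL was added to these cells too is not given for each library. Each group had 3 libraries from cells of passage 30 after 4 days of treatment. The labels name no separate cultures or days behind the replicates, so the p-values measure the spread between these samples, which may be technical. All groups come from 1 cell line, which limits them as a model of bone marrow cells.

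The BCL2 family decides whether the outer mitochondrial membrane is opened during apoptosis. Survival members such as BCL2, BCL-XL (the product of Bcl2l1), MCL1 and A1 (the product of the Bcl2a1 genes) bind and restrain the pore formers BAX and BAK. BH3-only proteins such as BIM (Bcl2l11), PUMA (Bbc3) and NOXA (Pmaip1) occupy the survival members or activate the pore formers. In macrophages and osteoclasts the balance between BIM, MCL1, BCL-XL and A1 is known to set cell lifespan. What follows is mRNA, and says nothing of protein level or of cell death.

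A value is given in adjusted reads, which are 2 raised to the deposited log2 value, minus 1. The total per library lay between 5930926 and 6503682 adjusted reads. In all 9 libraries the low values from about 1 read up step in units close to 1 read. Values far under 1 read also occurred, such as 0.0042 for Bcl2a1c in negative control replicate 2. That library, heat-killed MJ2 replicate 1 and surface protein replicate 3 had 15503 rows above 0 each, beside 12407 to 13207 in the others. The cause was not tested. Because the kit reads about 1 fragment from the 3′ end of each transcript, values do not grow with transcript length and levels of different genes were compared on this scale. Libraries correlated at 0.946 to 0.964 within groups and at 0.823 to 0.921 between groups. The 10 macrophage markers summed to 24771 to 25594 adjusted reads with RANKL alone, 30263 to 31153 with heat-killed MJ2 and 27722 to 30331 with surface proteins. Within that sum the markers went both ways with surface proteins, where Adgre1, Itgam, Lyz2 and Cd14 passed as higher (14.0-fold, 8.07-fold, 5.57-fold and 5.16-fold) and Csf1r as lower (0.36-fold), the 5 of them that passed, named after their values were seen. The label gives the tissue as blood lymph, and the 7 T and B cell markers summed to at most 3.85 adjusted reads in any library, with 4 of them at 0 in all 9. The 11 osteoclast markers summed to 21547 to 33860 adjusted reads with RANKL alone, 14345 to 16503 with heat-killed MJ2 and 5543 to 8160 with surface proteins, and the part of these marker shifts in the values of the BCL2 family was not tested. In such bulk samples fewer cells of a type and less RNA per cell cannot be told apart.

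Upstream sequences are shown for the genes with the largest differences, the Bcl2a1 copies and Bbc3, because the copies moved together and are nearly the same gene. The sequences are from RefSeq on GRCm38.p6, 5′ to 3′ on the strand of the gene. They are the part of the 250 bases before the RefSeq start that lies outside the gene's own exons in GENCODE M21. Capitals mark every match on either strand to any of 6 motifs, which were GGGNNNNNCC (NF-kB, any base at N), TGANTCA (AP-1), TGATGNAA (an ATF4 composite site), TGTTTAC (FOXO), TTCNNNGAA (GAS) and CACGTG (E-box).
Bcl2a1b, chr9:89199023-89199208, plus strand: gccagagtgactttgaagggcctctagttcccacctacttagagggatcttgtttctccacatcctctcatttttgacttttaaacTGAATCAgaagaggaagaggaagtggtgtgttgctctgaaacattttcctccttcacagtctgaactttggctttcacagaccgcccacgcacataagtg
Bcl2a1d, chr9:88731915-88732100, minus strand: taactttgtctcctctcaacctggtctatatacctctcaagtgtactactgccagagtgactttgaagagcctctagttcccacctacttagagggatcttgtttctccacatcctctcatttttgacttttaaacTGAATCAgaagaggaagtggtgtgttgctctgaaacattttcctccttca
Bbc3, second of 3 RefSeq starts, chr7:16310011-16310260, plus strand: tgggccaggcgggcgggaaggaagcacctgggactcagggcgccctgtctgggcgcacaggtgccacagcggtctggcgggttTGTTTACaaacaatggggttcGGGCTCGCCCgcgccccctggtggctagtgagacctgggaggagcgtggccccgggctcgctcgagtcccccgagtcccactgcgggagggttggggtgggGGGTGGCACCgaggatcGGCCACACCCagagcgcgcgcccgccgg
Both Bcl2a1 stretches hold the same AP-1 letters, TGAATCA. The Bbc3 stretch holds the FOXO letters 167 bases before the start, and its other capitals match the NF-kB pattern. Starts 1 and 3 of Bbc3, which are not shown, held NF-kB matches and no FOXO letters, and start 3 also held an E-box. The Bcl2a1d stretch also overlaps an exon of Gm37560 on the opposite strand.

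These matches are descriptions of letters and not of binding sites. Among 14 upstream windows of 9 of the members (Pmaip1 was not searched), the NF-kB pattern was found in 10, the AP-1 pattern in 2, the FOXO pattern in 2, the E-box in 2, the ATF4 composite in 1 and the GAS pattern in 0. Among all 32851 RefSeq windows of 250 bases the same patterns were found in 45.8% (NF-kB), 6.75% (AP-1), 3.17% (FOXO), 6.02% (E-box), 3.45% (ATF4 composite) and 7.02% (GAS). The 14 windows are not independent, as those of starts 2 and 3 of Bbc3 overlap and share NF-kB matches. The Bak1 window and those of starts 1 and 2 of Bcl2l1 lie wholly in exons of the gene itself. Of the 14, the windows with the NF-kB pattern were 53.2% to 81.6% G or C, and the others 44.8% to 48.4%. The part of base content in these counts was not tested. The ATF4 composite letters TGATGCAA lay 40 bases before the RefSeq start of Bcl2a1b and 5 bases after that of Bcl2a1d, because the start of the same sequence is annotated at a different base.

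The Bcl2a1 genes are a mouse-specific cluster of copies, and the aligned transcripts of Bcl2a1b and Bcl2a1d differ at 7 of 817 bases, an identity of 99.1%. Of the 426 windows of 75 bases in the last 500 bases of each transcript, 51.4% of those of Bcl2a1b and 27.9% of those of Bcl2a1d occur in no other copy. How the authors' counting placed reads that fit more than 1 copy is not given in the sources used here. The values of single copies are therefore uncertain, and the sum over the copies is given beside them. Other genes also overlap the ends of some members, counted over the last 500 bases of any of their GENCODE transcripts. Gm29094 covers 254 such bases of Bcl2a1b and Gm45808 covers 192 of Bax, both on the same strand, and Ggnbp1 covers 79 of Bak1 on the opposite strand. Reads there could have been counted for either gene.

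With surface proteins, 5 of the 10 members rose and 0 fell against RANKL alone by limma (0 were lower at an unadjusted p under 0.05, beside 20.1% of all genes tested). They were Bbc3, the gene for the BH3-only protein PUMA, and 4 survival genes, Bcl2a1b, Bcl2a1d, Bcl2 and Bcl2l1. The threshold was an adjusted p under 0.05 by limma with Benjamini-Hochberg adjustment over 10874 genes and a fold change of at least 2, and 17.5% of all genes tested passed it (10.2% higher and 7.32% lower). The median log2 fold change of the 10 members was 0.76, beside -0.0077 for all genes tested. The surface protein libraries lay wholly above the negative control for 6 members, beside 24.7% of all genes tested, and wholly below it for 1, beside 23.7%. Reads that fit both Bcl2a1b and Bcl2a1d may enter these counts under both names. The members were also chosen with earlier results of these data known.

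**Figure D1:**
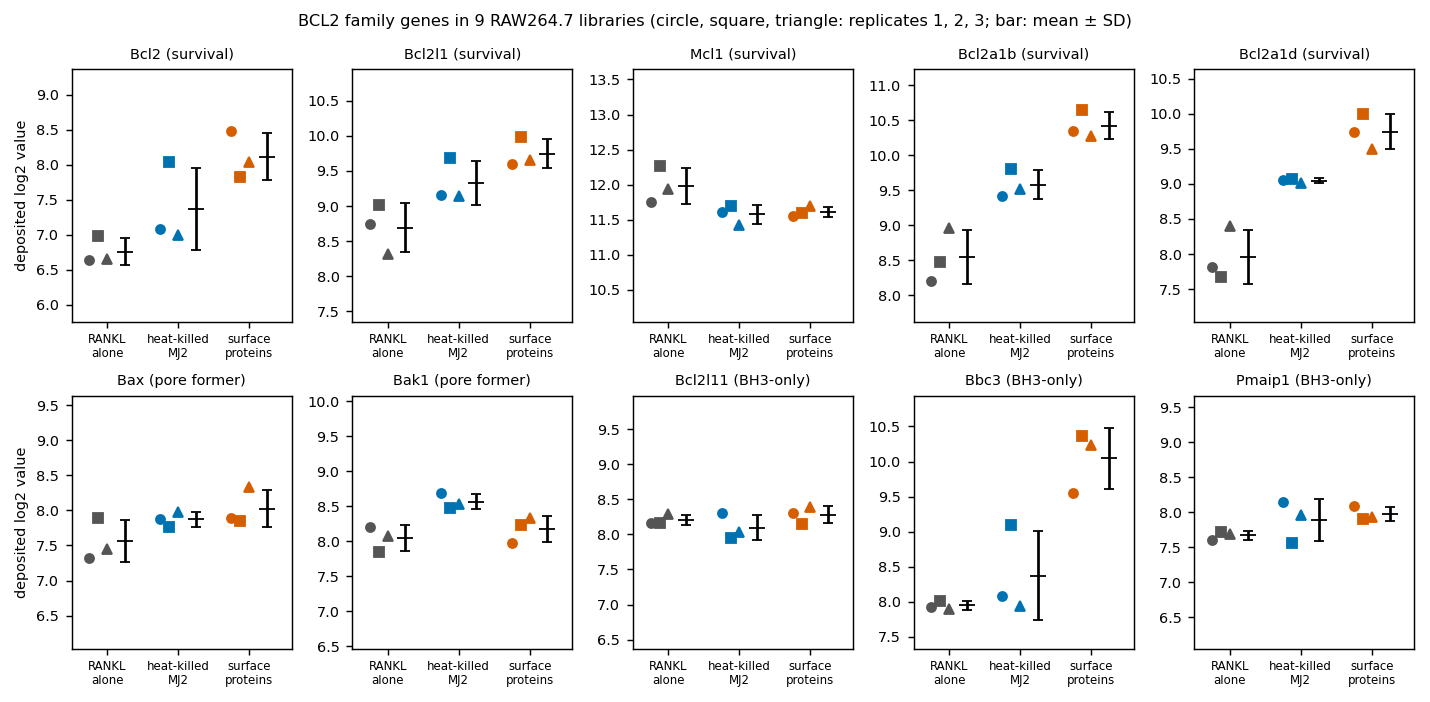
Deposited log2 values of the 10 BCL2 family genes in each of the 9 libraries, 1 panel per gene, every panel spanning the same height on the log2 scale. Grey, blue and orange points are RANKL alone, heat-killed MJ2 and surface proteins, marker shapes are replicates, and bars are the mean ± SD of 3 libraries; Bcl2a1b, Bcl2a1d and Bbc3 step up with surface proteins, while Bcl2l11 stays between 7.95 and 8.39 in all libraries.

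Bcl2a1b, an A1 survival gene at 9:89199209-89207827 on the plus strand of GRCm38, had 295, 356 and 496 adjusted reads with RANKL alone. It had 681, 897 and 733 with heat-killed MJ2, and 1308, 1599 and 1239 with surface proteins. The 3 groups did not overlap and were ordered RANKL alone, heat-killed MJ2, surface proteins. The log2 fold change against RANKL alone was 1.88 ± 0.23 (SE, n = 3 per group, adjusted p = 0.0031) with surface proteins. With heat-killed MJ2 it was 1.03 ± 0.23 (SE, adjusted p = 0.057), which did not pass.

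Bcl2a1d, at 9:88723285-88731914 on the minus strand, gave the same order of groups without overlap. Its values were 223, 203 and 335 adjusted reads with RANKL alone, then 532, 538 and 515 with heat-killed MJ2, and 857, 1023 and 720 with surface proteins. Bcl2a1d rose by 1.79 ± 0.24 on the log2 scale with surface proteins (SE, adjusted p = 0.0042) and by 1.09 ± 0.21 with heat-killed MJ2 (SE, adjusted p = 0.040). The second call was lost in 5 of the 6 fits that left out 1 library and held without negative control replicate 3. It was also lost without a filter on low values (adjusted p = 0.075) and with the replicate number as a block (adjusted p = 0.093). The adjusted p was 0.103 without negative control replicate 1 and 0.092 without replicate 2, and 0.127, 0.113 and 0.120 without heat-killed MJ2 replicates 1, 2 and 3.

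Summed over the 4 copies, the Bcl2a1 genes had 629, 696 and 986 adjusted reads with RANKL alone. The sums were 1490, 1744 and 1514 with heat-killed MJ2 and 2572, 3106 and 2353 with surface proteins. The sum does not depend on how reads were divided between copies, provided each read was counted once. Reads that were dropped, counted for more than 1 copy or given to Gm29094 would change it. The summed row kept the order of the 3 groups without overlap. It rose by 1.81 ± 0.22 on the log2 scale with surface proteins (SE, adjusted p = 0.0029) and by 1.06 ± 0.20 with heat-killed MJ2 (SE, adjusted p = 0.038). Between surface proteins and heat-killed MJ2 the sum differed by 0.75 ± 0.16 (SE, adjusted p = 0.028), under the fold limit. The sum was an alternative chosen after seeing the data.

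Bcl2, the founding survival gene at 1:106538178-106714274 on the minus strand, was the lowest of the members with RANKL alone, at 98.4, 125 and 99.8 adjusted reads. With surface proteins it had 358, 226 and 261 adjusted reads, all above the negative control, and it rose by 1.36 ± 0.22 on the log2 scale (SE, adjusted p = 0.0071). With heat-killed MJ2 it had 134, 262 and 127 adjusted reads. Replicate 2 stood about as high as the surface protein libraries, and the other two lay just above the negative control. The log2 fold change with heat-killed MJ2 was 0.61 ± 0.30 (SE, adjusted p = 0.30), and 0.28 (adjusted p = 0.43) without replicate 2. Bcl2 shares exon bases with D630008O14Rik on the opposite strand, none of them in the last 500 bases of a transcript.

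Bcl2l1, the gene for BCL-XL at 2:152780668-152831728 on the minus strand, had 428, 516 and 317 adjusted reads with RANKL alone. It had 570, 825 and 566 with heat-killed MJ2 and 776, 1014 and 802 with surface proteins. Both treated groups lay above the negative control and overlapped each other. Bcl2l1 rose by 1.05 ± 0.22 on the log2 scale with surface proteins (SE, adjusted p = 0.018), a 2.08-fold difference close to the limit. It was under the fold limit without negative control replicate 3 (0.87, adjusted p = 0.040) and did not pass without surface protein replicate 2 (0.93, adjusted p = 0.058). With heat-killed MJ2 the log2 fold change was 0.64 ± 0.25 (SE, adjusted p = 0.19).

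Mcl1, a short-lived survival protein's gene at 3:95658788-95663176 on the plus strand, was the highest member in every library. It had 3431, 4911 and 3906 adjusted reads with RANKL alone, 3120, 3321 and 2754 with heat-killed MJ2, and 2999.5, 3086 and 3312 with surface proteins. Every treated library was below every negative control library, by a narrow margin, and the treated groups overlapped. The log2 fold change was -0.37 (95% interval -0.79 to 0.055, adjusted p = 0.16) with surface proteins and -0.40 (95% interval -0.83 to 0.031, adjusted p = 0.25) with heat-killed MJ2. Neither passed, so Mcl1 was the 1 survival gene of the 5 with negative values in both comparisons.

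Neither pore former passed in any of the 3 comparisons. Bax, at 7:45461697-45466898 on the minus strand, ranged over 159 to 237 adjusted reads with RANKL alone, 217 to 250 with heat-killed MJ2 and 229 to 321 with surface proteins, and the groups overlapped. Its log2 fold change with surface proteins was 0.47 (95% interval -0.068 to 1.00, adjusted p = 0.16). Bak1, at 17:27019810-27029009 on the minus strand, had 295, 230 and 269 adjusted reads with RANKL alone, 412, 356 and 370 with heat-killed MJ2, and 250.4, 300.5 and 322 with surface proteins. For this gene the heat-killed MJ2 libraries were the highest and lay above both other groups. Its log2 fold change was 0.52 ± 0.15 with heat-killed MJ2 against RANKL alone (SE, adjusted p = 0.11) and -0.39 ± 0.15 with surface proteins against heat-killed MJ2 (SE, adjusted p = 0.13), and neither passed.

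Of the 3 BH3-only genes, Bbc3 passed in both comparisons of surface proteins with another group, and Bcl2l11 and Pmaip1 passed in none. Bbc3, the gene for PUMA at 7:16308393-16318205 on the plus strand, had 242, 258 and 238 adjusted reads with RANKL alone and 748, 1313 and 1200 with surface proteins. It rose by 2.10 ± 0.24 on the log2 scale (SE, adjusted p = 0.0023), a 4.28-fold difference and the largest among the 10 members. With heat-killed MJ2 it had 269, 548 and 244 adjusted reads, so that replicates 1 and 3 lay at the level of the negative control and replicate 2 stood apart. The log2 fold change with heat-killed MJ2 was 0.42 ± 0.32 (SE, adjusted p = 0.48), and 0.061 (adjusted p = 0.85) without replicate 2.

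Bcl2l11, the gene for BIM at 2:128126038-128162547 on the plus strand, had 285, 287 and 312 adjusted reads with RANKL alone, 315, 247 and 262 with heat-killed MJ2, and 315, 282 and 335 with surface proteins. The groups overlapped in all 3 comparisons. The 95% interval of its log2 fold change was -0.26 to 0.41 with surface proteins and -0.47 to 0.25 with heat-killed MJ2, so a 2-fold difference lay outside both. Pmaip1, the gene for NOXA, had 193, 210 and 206 adjusted reads with RANKL alone and 270.2, 237 and 243 with surface proteins, all above the negative control. Its log2 fold change was 0.30 (95% interval -0.026 to 0.62, adjusted p = 0.14). With heat-killed MJ2 it had 282, 188 and 247 adjusted reads, which overlapped the negative control.

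With heat-killed MJ2, 1 of the 10 members, Bcl2a1d, rose against RANKL alone and 0 fell by limma. At an unadjusted p under 0.05, 0 were lower, beside 10.6% of all genes tested. In this comparison 4.26% of 10814 genes tested passed (3.37% higher and 0.897% lower). The median log2 fold change of the members was 0.47, beside -0.0042 for all genes tested. The heat-killed MJ2 libraries lay wholly above the negative control for 5 members, beside 15.4% of all genes tested, and wholly below it for 1, beside 14.7%. Both comparisons share the negative control libraries, so their values are set side by side and were not counted as separate support.

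**Figure D2:**
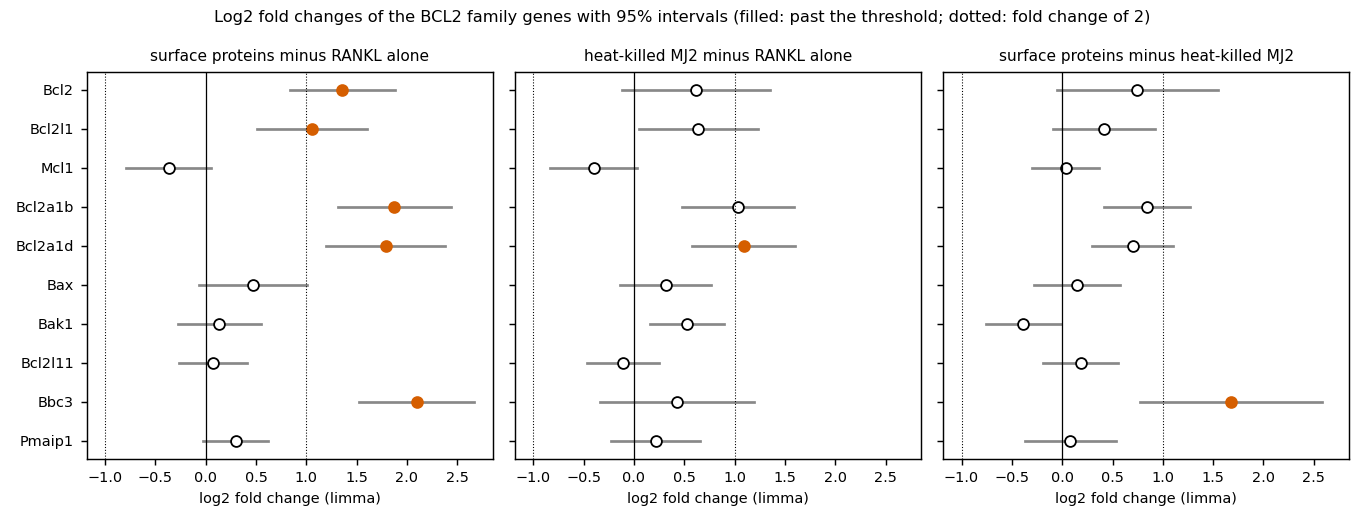
Log2 fold changes of the 10 members in the 3 comparisons by limma, with the 95% interval as a grey line, the threshold fold change of 2 as dotted lines and filled points for members past the threshold. There are 5 filled points for surface proteins against RANKL alone, 1 (Bcl2a1d) for heat-killed MJ2 against RANKL alone and 1 (Bbc3) for surface proteins against heat-killed MJ2.

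Surface proteins were also compared with heat-killed MJ2 directly, where the presence of RANKL in the second group is not stated. Bbc3 was the 1 member that passed, at 1.67 ± 0.37 on the log2 scale (SE, adjusted p = 0.031). Of all 10916 genes tested, 10.1% passed (5.08% higher and 4.97% lower). The call was lost without heat-killed MJ2 replicate 1 (adjusted p = 0.098) or 3 (0.093) and without surface protein replicate 2 (0.093) or 3 (0.083), as well as without a filter on low values (0.070). Bcl2a1b (0.84 ± 0.17, SE, adjusted p = 0.026) and Bcl2a1d (0.70 ± 0.17, SE, adjusted p = 0.036) were higher with surface proteins at an adjusted p under 0.05, as were 9.21% of all genes tested, but under the fold limit. Bcl2 differed by 0.75 ± 0.33 (SE, adjusted p = 0.17), and by 1.08 (adjusted p = 0.038) without heat-killed MJ2 replicate 2, where it passed. Mcl1 differed by 0.034 (95% interval -0.30 to 0.37). The surface protein libraries lay wholly above those of heat-killed MJ2 for 3 members, beside 22.2% of all genes tested, and wholly below them for 1, Bak1, beside 20.1%.

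Counted as transcript ends, the make-up of the 10 members differed between the groups, and this is given as a description without a test. The summed value of the 10 members was 6446 ± 844 adjusted reads with RANKL alone, 6673 ± 673 with heat-killed MJ2 and 8728 ± 596 with surface proteins (SD, n = 3). Mcl1 took 63.1% ± 3.41 of it with RANKL alone, 46.0% ± 1.46 with heat-killed MJ2 and 36.0% ± 2.49 with surface proteins. Bcl2a1b and Bcl2a1d together took 9.96% ± 2.82, 19.5% ± 1.02 and 25.7% ± 3.00. These shares did not overlap between groups, and because shares add to a fixed total, a lower share of Mcl1 does not need a lower level of Mcl1.

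By role, the survival members held 81.2% ± 2.06 of the members' adjusted reads with RANKL alone, 77.7% ± 1.10 with heat-killed MJ2 and 74.9% ± 2.62 with surface proteins. The 3 chosen BH3-only members held 11.6% ± 1.24, 13.0% ± 0.48 and 18.8% ± 2.09. Within these 3 genes, Bbc3 took 33.1% ± 1.40 with RANKL alone and 65.1% ± 8.06 with surface proteins. With heat-killed MJ2 it took 31.1%, 55.8% and 32.4% in replicates 1, 2 and 3. The pore formers held 7.13% ± 0.85, 9.28% ± 1.34 and 6.35% ± 0.88. Other genes of the BCL2 family were not part of these shares, so the shares depend on which genes were chosen. Among those left out, Bid had means of 510, 656 and 582 adjusted reads in the same order of groups. Bad had means of 442, 365 and 422.

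**Figure D3:**
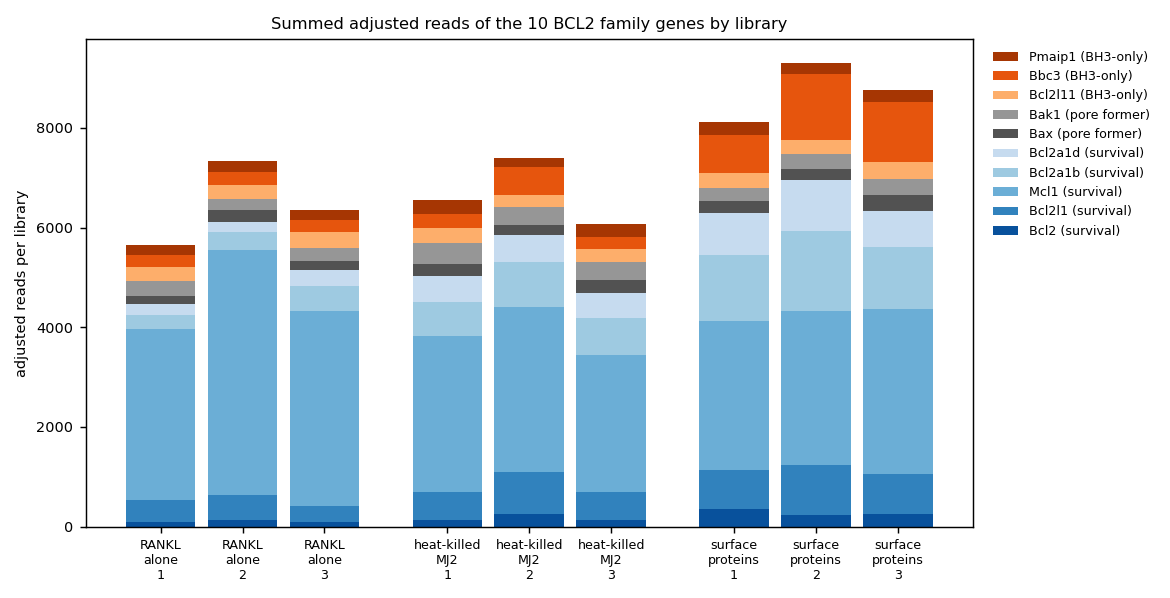
Adjusted reads of the 10 members stacked by gene in each of the 9 libraries, with survival genes in blue, pore formers in grey and BH3-only genes in orange. The 3 surface protein libraries are the tallest, from 8119 to 9310 adjusted reads, and their light blue (Bcl2a1b and Bcl2a1d) and orange (Bbc3) segments are the tallest, while the Mcl1 segment makes up 33.1% to 37.8% of the bar.

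Genes around the family were read from 7 lists holding 78 genes, of which 68 were tested with surface proteins against RANKL alone. In these lists 13 genes rose and 3 fell, which is 23.5% beside 17.5% of all genes tested. With heat-killed MJ2 2 rose and 2 fell of 68 (5.88%, near the 4.26% of all genes), and with surface proteins against heat-killed MJ2 9 were higher and 1 lower of 67 (14.9% beside 10.1%). Of the 16 genes past the threshold with surface proteins against RANKL alone, 7 (Bmf, Sesn2, Fas, Eda2r, Trib3, Chac1 and Atf3) had fewer than 3 libraries of their lower group at 10 adjusted reads and so were tested with the help of the group where they were high, and the count was 9 when all 6 libraries had to reach 10.

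Among 10 tested genes of the rest of the BCL2 family, 1 rose and 1 fell with surface proteins. The riser was Bcl2a1a, a further A1 copy, at 1.68 ± 0.18 on the log2 scale (SE, adjusted p = 0.0021), and it also rose with heat-killed MJ2 (1.09 ± 0.17, SE, adjusted p = 0.022). Bmf, a BH3-only gene, had 86.6, 56.9 and 37.6 adjusted reads with RANKL alone, 10.3, 1.89 and 6.84 with heat-killed MJ2, and 26.4, 5.70 and 7.82 with surface proteins. Bmf fell by 2.31 on the log2 scale with surface proteins and by 3.19 with heat-killed MJ2 (adjusted p = 0.029 in both). These are low levels, and with surface proteins the Bmf call was lost without negative control replicate 1 or 2 or without surface protein replicate 2 or 3 (adjusted p = 0.081, 0.068, 0.083 and 0.082), and its value was -2.92 without surface protein replicate 1. With heat-killed MJ2 the calls of Bmf and Bcl2a1a held in 0 and 1 of the 6 fits without 1 library, and the adjusted p reached 0.086 and 0.088.

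Downstream of the membrane, 0 of 16 tested apoptosome and caspase genes rose by limma with surface proteins (3 were higher at an unadjusted p under 0.05) and 1 fell. That gene was Endog, a mitochondrial nuclease, with 95.6, 112 and 144 adjusted reads with RANKL alone and 55.8, 37.4 and 40.7 with surface proteins (log2 fold change -1.38 ± 0.23, SE, adjusted p = 0.0080). With heat-killed MJ2 0 of the 16 passed by limma (3 at an unadjusted p under 0.05), with log2 fold changes between -0.45 and 0.61. Of 6 caspase inhibitors 2 rose with surface proteins, Naip2 (2.22 ± 0.20, SE, adjusted p = 0.0012) and Naip5 (1.88 ± 0.16, SE, adjusted p = 0.0011). Both are named for inhibition of apoptosis and are best known as inflammasome sensors of bacterial proteins. Of 7 outer membrane channel and import genes, 0 passed by limma with surface proteins and 0 with heat-killed MJ2 (3 and 1 at an unadjusted p under 0.05), with log2 fold changes between -0.51 and 0.86 and between -0.19 and 0.37.

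A further list held inducers of BH3-only genes, with 5 genes of the integrated stress response and the separate FOXO factors Foxo1 and Foxo3, of which Foxo3 was under the filter on low values. Of the 6 tested, the 5 stress response genes rose with surface proteins and Foxo1 did not pass (-0.68, adjusted p = 0.060). The median log2 fold change of the 6 was 3.49, beside -0.0077 for all genes tested. Atf4, the transcription factor at the centre of the integrated stress response, had 2348, 3396 and 2128 adjusted reads with RANKL alone and 9640, 9462 and 8749 with surface proteins, a rise of 1.85 ± 0.21 on the log2 scale (SE, adjusted p = 0.0022). Ddit3, the gene for CHOP, which is known to act upstream of BH3-only genes under stress, rose by 3.98 ± 0.28 (SE, adjusted p = 0.00052). Trib3 rose by 7.14 ± 1.06 (SE, adjusted p = 0.0055) and Atf3 by 5.50 ± 1.08 (SE, adjusted p = 0.013), from levels of 2.72 to 70.2 and 5.91 to 146 adjusted reads with RANKL alone. Both values leaned on single negative control libraries, as Trib3 was at 6.32 without replicate 1 and 8.45 without replicate 2, and Atf3 at 6.78 without replicate 2 and 4.58 without replicate 3, each still past the threshold. Chac1 rose by 2.99 ± 0.83 (SE, adjusted p = 0.040), a call that held in 1 of the 6 fits without 1 library (adjusted p up to 0.0995), namely without negative control replicate 2 (3.93), and its value was 2.15 without replicate 1.

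With heat-killed MJ2 0 of the 6 passed by limma (4 were higher at an unadjusted p under 0.05), and the log2 fold changes lay between -0.46 and 3.99. The library of heat-killed MJ2 that stood apart for Bbc3 and Bcl2, replicate 2, was also the highest of its group for these genes. It had 1412 adjusted reads of Ddit3, beside 710.2 and 643 in replicates 1 and 3. It had 452 of Trib3, beside 135 and 102. Negative control replicate 2 was likewise the highest of its group for Ddit3, Trib3, Atf3 and Chac1, while its Bbc3 value of 258 was close to that of the other two. The part of these genes in the Bbc3 values was not tested.

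**Figure D4:**
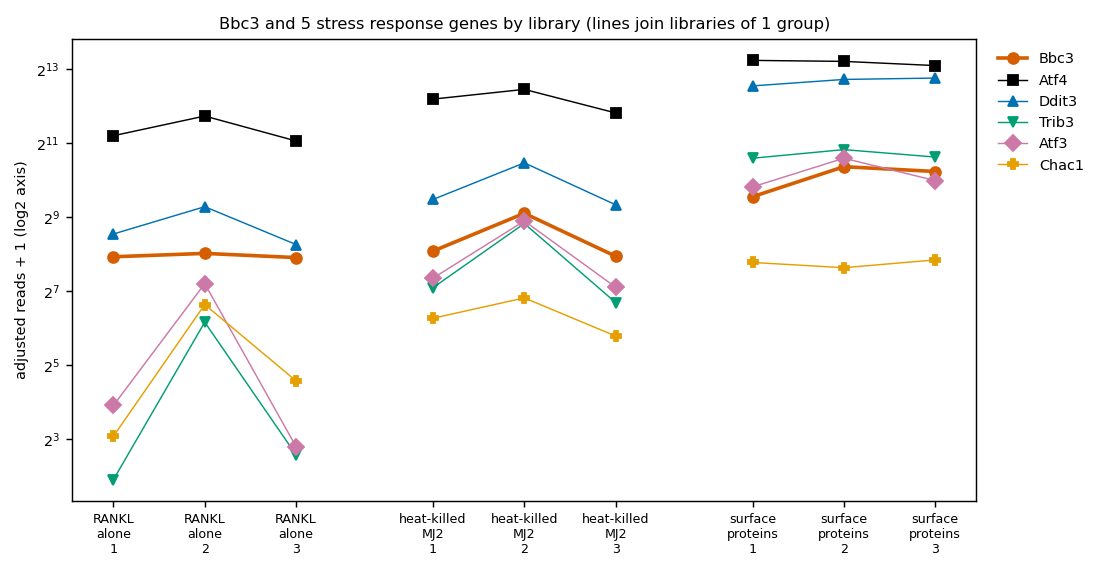
Adjusted reads + 1 of Bbc3 and of Atf4, Ddit3, Trib3, Atf3 and Chac1 in each library on a log2 axis, with lines joining the 3 libraries of a group. All 6 genes are highest in the surface protein libraries, and in the heat-killed MJ2 group all 6 peak in replicate 2; in the negative control group replicate 2 peaks for the 5 stress genes while Bbc3 stays between 238 and 258.

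Of 17 tested p53 genes, p53 being another inducer of Bbc3, Pmaip1 and Bax, 4 passed as higher and 1 as lower with surface proteins by limma. Of all genes tested, 10.2% passed as higher and 7.32% as lower. Without the fold limit 7 of the 17 were at an adjusted p under 0.05, 1 of them lower, beside 3163 of 10874 genes tested. They included Mdm2 (log2 fold change 0.76, adjusted p = 0.023) and Cdkn1a (0.84, adjusted p = 0.0083). With heat-killed MJ2, Mdm2 and Cdkn1a were at 0.83 and 0.66 (adjusted p = 0.034 and 0.043), also under the fold limit. Fas, a death receptor gene, had 0, 7.66 and 2.95 adjusted reads with RANKL alone, 59.3, 35.8 and 17.6 with heat-killed MJ2, and 60.7, 79.8 and 88.6 with surface proteins (log2 fold change 4.56 ± 0.75, SE, adjusted p = 0.0076). All 3 of its negative control libraries were under 10 adjusted reads, so Fas was tested only through the group where it was high. Its value was 3.71 without negative control replicate 1 and 5.27 without replicate 2. Without any one surface protein library it was under the filter on low values and was not tested. Eda2r rose by 2.37, the stress-induced Sesn2 by 2.27 and the growth-arrest gene Btg2 by 1.03 on the log2 scale (adjusted p = 0.0039, 0.013 and 0.0089). Eda2r and Sesn2 had 1 negative control library each at 10 adjusted reads or more. Btg2 was under the fold limit with quantile normalization (0.97) and with equal totals (0.98), and also without negative control replicate 1 (0.96) or surface protein replicate 2 (0.91). Sesn1, a target of both p53 and FOXO, fell by 2.83 on the log2 scale (adjusted p = 0.015), and did not pass without surface protein replicate 2 (adjusted p = 0.054). Its value was -3.47 without surface protein replicate 1. Sesn1 also fell with heat-killed MJ2, by 1.33 (adjusted p = 0.032), a call held in 1 of 6 fits without 1 library, with an adjusted p of up to 0.11, and lost with all 9 libraries in one fit (0.158) and without a filter on low values (0.070).

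Of 6 tested genes that act on MCL1 protein turnover, 1 rose in each comparison with RANKL alone. It was Dusp6, a phosphatase that acts on ERK, with 126, 193 and 104 adjusted reads with RANKL alone, 483, 390 and 509 with heat-killed MJ2, and 363, 423 and 368 with surface proteins. It rose by 1.49 ± 0.25 with surface proteins (SE, adjusted p = 0.0081) and by 1.74 ± 0.26 with heat-killed MJ2 (SE, adjusted p = 0.019). The second call held in 2 of 6 fits without 1 library, with an adjusted p of up to 0.083.

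For each member whose group means spanned at least 1 on the log2 scale, the 3 genes with the most similar centred log2 values over the 9 libraries were found among 11193 genes. The measure was the root mean square difference in log2 units. Bcl2a1b was nearest to Bcl2a1a (0.149), Cd53 (0.150) and Bcl2a1d (0.151), and Bcl2a1d to Bcl2a1b (0.151), Prkx (0.155) and Bcl2a1a (0.163), so the copies were among each other's nearest genes, and how far shared reads enter this was not tested. Bcl2l1 was nearest to Tnfaip2 (0.0989), Bin1 (0.124) and Vps13c (0.126). Bcl2 was nearest to Rxra (0.192), Kcnj2 (0.198) and Sars (0.220). Bbc3 was nearest to Plxnc1 (0.179), Klf4 (0.190) and Gtpbp2 (0.211). These are descriptions over 9 libraries of 3 groups.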

How the data were processed

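RNA of RAW264.7 cells was sequenced from the 3′ end of mRNA with a Lexogen QuantSeq kit in 9 libraries, 3 per group, with groups and replicate numbers taken from the sample titles. The authors deposited log2 values, 1 per gene symbol and library. The submitters' processing notes name Bowtie2, bedtools and mm10, and the methods name quantile normalization. The sorted columns of the libraries differ by up to 1.60, so the scaling of the deposited log2 values is not known. Adjusted reads are 2 to the power of the value, minus 1, and each total is given as a range above. Multiply listed symbols (35) were kept apart. No per-sample column was left out.

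Each comparison was fitted on its own 6 libraries with limma 3.58.1 in R 4.3.3 (lmFit and eBayes on the log2 values, which contain a constant of 1). A gene was tested where 3 or more of the 6 libraries held 10 or more adjusted reads. It passed when its p, after Benjamini-Hochberg adjustment, was under 0.05 and its groups differed 2-fold or more. All 10 members passed the filter. A 3 against 3 exact permutation test cannot go below p = 0.10, so limma was used. Fold changes of low genes are understated by the constant. The code was tested on simulated data. Tables and plots used Python 3.11.15, numpy 2.4.6, pandas 2.3.3 and matplotlib 3.10.9.

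The members, the gene lists and the motifs were chosen with earlier results of these data known. The genes named are all members, the listed genes past the threshold against RANKL alone (at most 5 a list), and the 3 genes most like each member that spanned at least 1 on the log2 scale. Named outside this rule were Foxo1, Foxo3, Mdm2, Cdkn1a, Bid, Bad, the marker genes and genes with overlapping exons. Loci and transcripts are from GENCODE M21 (GRCm38, the assembly called mm10), and upstream sequences from RefSeq on GRCm38.p6. Alternatives were other scalings, filters, constants and thresholds, a replicate block, a trended robust fit, one fit of all 9 libraries and leaving out each library. Protein sequences were not used here.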

Additional observations from a re-analysis of the deposited data

How the results depend on the processing

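The 5 members higher with surface proteins than with RANKL alone passed in all 10 other scalings, filters, constants and fits, and 4 to 5 passed when 1 library was left out. Against RANKL alone, the count of members past the threshold with heat-killed MJ2 (1) became 2 with equal totals, with 10 adjusted reads in all 6 libraries, with all 9 libraries in one fit, with a trended robust fit and at an unadjusted p, Bcl2a1b joining, and 0 without a filter; it was 0 to 2 without 1 library. With surface proteins against heat-killed MJ2 the count (1) was 0 without a filter, 3 without a fold limit and 0 to 2 without 1 library. In that comparison Mcl1 turned to -0.048 and Pmaip1 to -0.00045 with equal totals, and without 1 library Mcl1 ranged over -0.041 to 0.094, Pmaip1 over -0.082 to 0.21 and Bax over -0.0033 to 0.24, none past the threshold; the cause was not tested.

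Without a fold limit, 3163 genes differed between surface proteins and RANKL alone (1902 with it) and 1949 between surface proteins and heat-killed MJ2 (1098). With heat-killed MJ2 against RANKL alone (461) the count was 267 without a filter and 799 at an unadjusted p. Leaving out 1 library gave 1357 to 1822, 362 to 1176 and 81 to 347 genes, from fits of 5 libraries. Of the listed genes around the family, the 16 past the threshold with surface proteins against RANKL alone became 9 with 10 adjusted reads in all 6 libraries and 25 without a fold limit, and 11 to 17 without 1 library. The 4 with heat-killed MJ2 became 1 without a filter and 9 without a fold limit or at an unadjusted p, and 0 to 4 without 1 library. The 10 with surface proteins against heat-killed MJ2 became 17 without a fold limit and 2 to 12 without 1 library.

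Libraries with the same replicate number deviated together only weakly (r of 0.018 to 0.11, against -0.076 to 0.031 for different numbers), and in 18 of 18 checks a library correlated best with its own number, which is a hint from the data and not the design. With a replicate block, 0 members, 1 listed gene and 289 genes passed with heat-killed MJ2 against RANKL alone. The block also ended the calls of Chac1 with surface proteins (adjusted p = 0.056) and of Bcl2a1d (0.093), Sesn1 (0.098), Dusp6 (0.077), Bmf (0.054) and Bcl2a1a (0.067) with heat-killed MJ2. Without a filter, Bmf (0.070) and Chac1 (0.093) with surface proteins and Dusp6 (0.052) and Bmf (0.077) with heat-killed MJ2 did not pass. The shares of family reads by role moved by less than the SD between replicates with quantile normalization. With equal totals, the calls between surface proteins and heat-killed MJ2 were 451 higher and 647 lower, beside 555 and 543 as deposited.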
